A study of Homo sapiens with 6 samples.

Results

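Prostaglandins are lipid mediators that most cells can make, and 10 genes of their synthesis, breakdown and recognition were followed here: the cyclooxygenases PTGS1 and PTGS2, the prostaglandin E synthases PTGES, PTGES2 and PTGES3, the prostacyclin synthase PTGIS, the degrading enzyme HPGD, and the receptors PTGER2, PTGER4 and PTGFR. They were chosen by gene symbol, and all 10 were found among the 60671 named genes of the deposited count table. Their RNA was read in BJ cells, a long-established culture line of human foreskin fibroblasts labelled wild type, in 6 sequencing libraries, 2 for each of days 0, 2 and 5 of a protocol that the labels call reprogramming. Day 0 cells had grown on poly-D-lysine in DMEM with 10% serum. Day 2 cells had then spent their time in a neuronal induction medium with 10 µM forskolin, an activator of adenylyl cyclase that raises cyclic AMP. Day 5 cells had been moved on day 2 to a neuronal maturation medium, again with 10 µM forskolin. The labels name the day 2 and day 5 cells FiNs. No cells given these media but no forskolin enter the comparisons, and the effects of time, medium and drug cannot be told apart. Whether both libraries of a day come from separate cultures is not in the labels. The spread behind every p-value is therefore that between these libraries and may be technical.

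Prostaglandin synthesis starts when phospholipases free arachidonic acid from membranes. A cyclooxygenase turns it into prostaglandin H2, from which terminal synthases make prostaglandin E2, prostacyclin and the other prostanoids. PTGS1 is classically described as the steadily expressed cyclooxygenase and PTGS2 as the inducible form, whose gene responds to cyclic AMP, growth factors and inflammatory cytokines in fibroblasts. HPGD starts the inactivation of prostaglandins. Prostaglandin E2 acts through 4 receptors, of which PTGER2 and PTGER4 couple to Gs and raise cyclic AMP, while PTGFR recognises prostaglandin F2 alpha and couples to Gq.

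Library totals ran from 17605858 to 27953926 counts, and 3 counts corresponded to 0.103 to 0.18 CPM, the unit of level used here, in which a gene's count is taken relative to its library's total scaled by a TMM factor. The table was fitted whole in edgeR, where 16327 genes passed a filter on low counts. In this fit 66.8% of tested genes were called between day 2 and day 0 at an adjusted p under 0.05, with 69.9% between day 5 and day 0 and 65.8% between day 5 and day 2. Scaling by library totals in place of TMM lowered the median log2 fold change of all genes by 0.18 for day 2 and by 0.21 for day 5 against day 0, and the share of calls that were higher on day 2 was then 38.1%. Fibroblast markers were abundant throughout, with summed levels of 24774 and 25184 CPM on day 0, 23081 and 23347 CPM on day 2, and 33230 and 33721 CPM on day 5. Their courses differed: by day 5 VIM (4845 and 4857 to 1458 and 1474 CPM), DCN (1050 and 1038 to 201 and 204) and THY1 (417 and 436 to 104 and 104) were below day 0, while COL1A2 (4996 and 5111 to 14195 and 14457), COL3A1 and POSTN were above it. Of 10 neuronal markers, DCX, NEFM and STMN2 were at 3 counts or fewer in every library, and the summed level went from 243 and 252 CPM on day 0 to 149 and 156 CPM on day 2 and 106 and 111 CPM on day 5. That sum is mostly TUBB3 (223 and 229 CPM on day 0, 87.2 and 87.7 CPM on day 5). MAP2 was also lower on day 5 (0.36 and 1.31 CPM) than on day 0 (11.8 and 14.2 CPM). In contrast, SNAP25 was higher on day 5 (16.9 and 19.8 CPM) than on day 0 (5.76 and 6.01 CPM). Of the other cell types that make or sense prostaglandins, 5 of 10 macrophage markers (PTPRC among them), 5 of 6 mast cell markers, the endothelial genes CDH5 and EMCN and the epithelial genes CDH1, KRT5 and KRT14 were at 3 counts or fewer in every library. The remaining macrophage markers summed to 97.9 to 99.1 CPM on day 0, 133 to 135 CPM on day 2 and 45.7 to 49.8 CPM on day 5, mostly from CD68. The summed mast cell level, nearly all KIT, was 20.7 to 21.5, 16.8 to 17.4 and 66 to 68 CPM, the endothelial level 76 to 76.9, 88.8 to 88.9 and 144 to 147 CPM, and the epithelial level 55.5 to 56.9, 45.5 to 46.4 and 25.5 to 27.9 CPM on the same days. The endothelial difference came from KDR (3.71 and 4.61 CPM on day 0, 63.4 and 60.1 CPM on day 5) and CLDN5, with TEK at 69 to 79.1 CPM in every library. The part of other cells in the results below was not tested.

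On day 2 the prostaglandin genes showed a large rise of the inducible cyclooxygenase PTGS2 and of PTGES, the inducible prostaglandin E synthase, while PTGS1 fell and PTGFR rose, each by about 2-fold. By day 5 PTGS2 had come down again without reaching its day 0 level, PTGES was higher still, PTGS1 was lower still, and PTGER4 was above both earlier days. HPGD gave no count in any library, and PTGIS 3 or fewer in each. The 8 other genes entered the fit. All 8 were called between day 2 and day 0, beside 66.8% of all tested genes, with 4 higher (33.4% of all genes) and 4 lower (33.4%). All 8 were also called between day 5 and day 0, beside 69.9% of all genes, with 4 higher (35.8%) and 4 lower (34.1%). Between day 5 and day 2 all 8 were called again, beside 65.8% of all genes, with 3 higher (32.1%) and 5 lower (33.7%). These counts include PTGER2 as higher on day 2 and PTGES2 as higher on day 5 against day 0, small changes whose calls and signs turned under other settings, as given with each gene. With calls this common across the table, the count of 8 is no result about the prostaglandin genes, and the size of the changes carries more. A change over 2-fold, by edgeR's glmTreat at a log2 fold change of 1, was called for 2 of 8 on day 2 against day 0 (PTGS2 and PTGES, both higher), where 12.5% of all tested genes passed (6.99% higher and 5.54% lower). On day 5 against day 0 it was called for 4 of 8 (PTGS2, PTGES and PTGER4 higher, PTGS1 lower), where 20.1% passed (9.74% higher and 10.3% lower). On day 5 against day 2 it was called for 4 of 8 (PTGER4 higher, with PTGS1, PTGS2 and PTGFR lower), where 14.4% passed (6.41% higher and 7.96% lower). The median log2 fold change of the 8 genes was 0.0043 on day 2 and -0.20 on day 5 against day 0, beside 0.003 and 0.04 over all tested genes, and -0.63 between day 5 and day 2, beside 0.01. Changes in both directions therefore lay within the group at every step. Since each comparison with day 0 uses the same day 0 libraries, and the step from day 2 to day 5 reuses both later days, the 3 comparisons are not independent. In bulk RNA, fewer cells expressing a gene and less RNA per cell cannot be told apart.

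**Figure D1:**
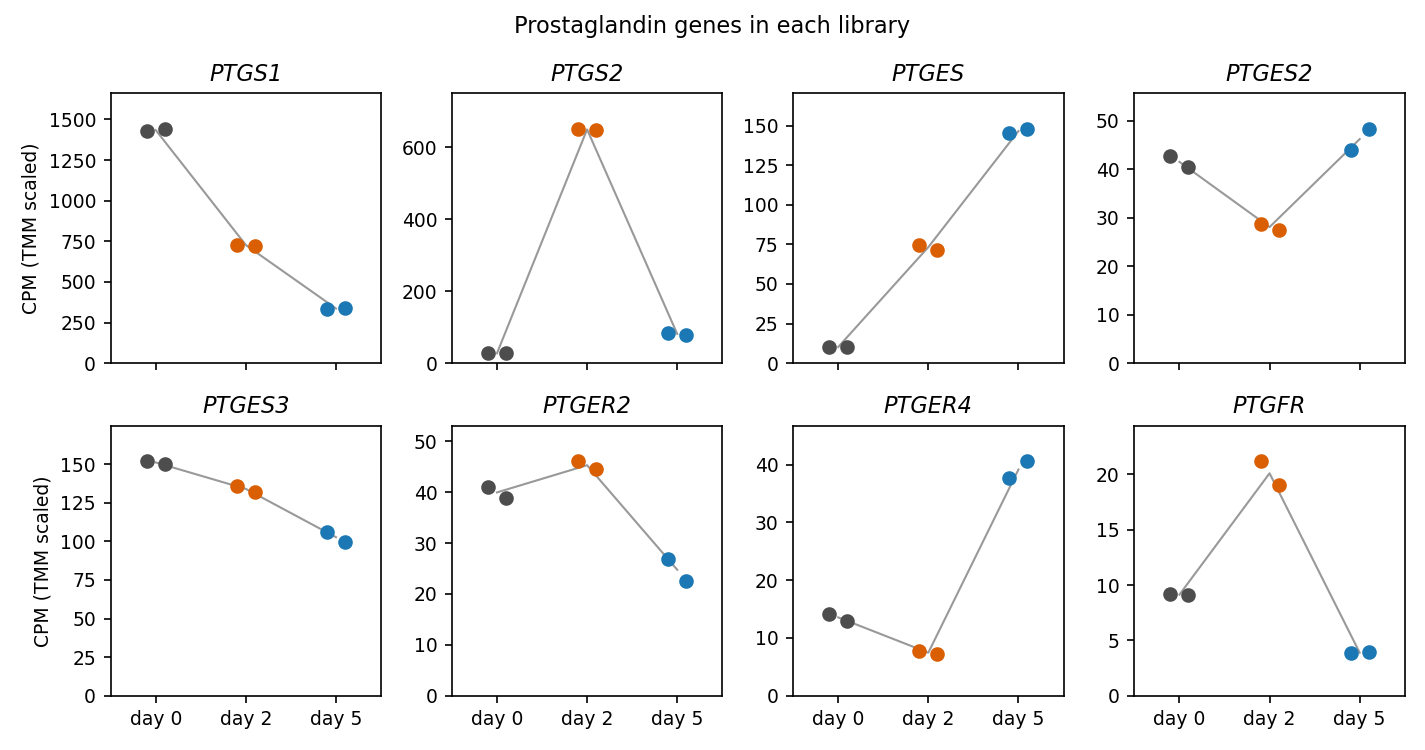
CPM scaled by TMM factors (y axis, linear and from 0, a different range in each panel) for the 8 tested prostaglandin genes by day, with 1 point per library and lines through the means of the 2 libraries. PTGS2 and PTGFR peaked on day 2, PTGES climbed at both steps, PTGS1 and PTGES3 declined at both, and PTGER4 was lowest on day 2 and highest on day 5.

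**Figure D2:**
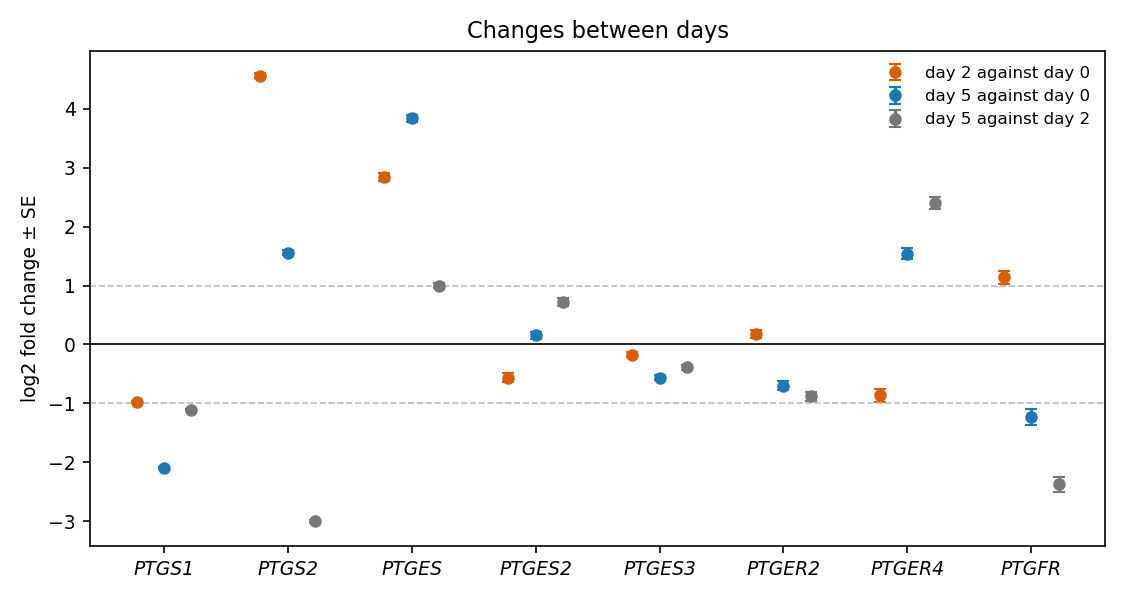
Log2 fold changes with standard errors derived from the edgeR F statistic for the 8 tested prostaglandin genes in the 3 comparisons between days, with dashed lines at a 2-fold change. PTGS2 gives both extremes, the highest point at 4.56 between day 2 and day 0 and the lowest between day 5 and day 2, where it was 7.99-fold lower.

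PTGS2 (ENSG00000073756), the inducible cyclooxygenase, lies on the minus strand of chromosome 1 at 186671791 to 186680427 (GRCh38). Its level was 27 and 27.9 CPM in the day 0 libraries, 651 and 647 CPM on day 2, and 83.4 and 79.1 CPM on day 5, from 684 to 17377 counts. Both day 2 libraries stood far above all others, both day 5 libraries stood above day 0, and no days overlapped. Against day 0 it was 23.6-fold higher on day 2 (log2 fold change 4.56 ± 0.04 SE, edgeR quasi-likelihood adjusted p = 2.0e-22; over 2-fold, adjusted p = 2.0e-21). It was then 7.99-fold lower on day 5 than on day 2 (SE 0.03 on the log2 scale, edgeR adjusted p = 9.0e-21), which left PTGS2 2.95-fold above day 0 (log2 fold change 1.56 ± 0.04, edgeR adjusted p = 3.2e-15; over 2-fold, adjusted p = 1.2e-09).

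PTGS1 (ENSG00000095303), the cyclooxygenase usually described as steadily expressed, lies on the plus strand of chromosome 9 at 122370530 to 122395703. Its level was 1426 and 1443 CPM on day 0, 729.9 and 724 CPM on day 2, and 334 and 339 CPM on day 5. The days were fully separated and each was lower than the one before. PTGS1 fell by 0.98 on the log2 scale on day 2 (± 0.02 SE, edgeR adjusted p = 2.7e-17), a change not called over 2-fold (with library totals it was, at -1.17), and by a further 1.11 from day 2 to day 5 (± 0.02, edgeR adjusted p = 1.3e-17; over 2-fold, adjusted p = 6.3e-05). Over both steps it was 4.26-fold lower on day 5 than on day 0 (log2 fold change -2.09 ± 0.02, edgeR adjusted p = 1.1e-21; over 2-fold, adjusted p = 1.0e-18).

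The 240 bases upstream of both cyclooxygenase genes are shown because the pair moved in opposite directions on day 2 and in the same direction after it, and the upstream stretches of PTGES and PTGFR because those genes were the other members that were higher on day 2 by more than 1 on the log2 scale. They run from 250 to 11 bases before a start that RefSeq gives (GRCh38.p14), of which PTGS1 has 2, 5′ to 3′ on the strand of the gene, and capitals mark matches to the motifs searched.
PTGS2, chr1:186680434-186680673, minus strand: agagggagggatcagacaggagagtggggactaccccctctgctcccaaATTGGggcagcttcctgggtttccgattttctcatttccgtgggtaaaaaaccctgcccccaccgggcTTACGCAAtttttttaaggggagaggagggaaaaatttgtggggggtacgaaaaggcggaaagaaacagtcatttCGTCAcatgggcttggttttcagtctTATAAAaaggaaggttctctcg
PTGS1 first start, chr9:122370283-122370522, plus strand: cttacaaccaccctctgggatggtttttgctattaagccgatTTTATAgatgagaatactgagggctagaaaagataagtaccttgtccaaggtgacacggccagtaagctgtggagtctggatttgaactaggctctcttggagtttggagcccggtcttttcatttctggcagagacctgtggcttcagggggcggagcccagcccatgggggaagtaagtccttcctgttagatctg
PTGS1 second start, chr9:122375052-122375291, plus strand: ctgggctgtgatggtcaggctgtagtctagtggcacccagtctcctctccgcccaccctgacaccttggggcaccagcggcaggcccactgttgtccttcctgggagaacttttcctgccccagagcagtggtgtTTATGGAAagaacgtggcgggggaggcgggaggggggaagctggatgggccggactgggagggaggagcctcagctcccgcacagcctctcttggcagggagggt
PTGES, chr9:129753053-129753292, minus strand: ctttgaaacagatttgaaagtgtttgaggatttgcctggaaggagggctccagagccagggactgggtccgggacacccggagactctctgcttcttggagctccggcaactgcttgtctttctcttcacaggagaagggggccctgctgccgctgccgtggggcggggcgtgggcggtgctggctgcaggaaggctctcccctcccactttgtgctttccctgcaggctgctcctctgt
PTGFR, chr1:78490724-78490963, plus strand: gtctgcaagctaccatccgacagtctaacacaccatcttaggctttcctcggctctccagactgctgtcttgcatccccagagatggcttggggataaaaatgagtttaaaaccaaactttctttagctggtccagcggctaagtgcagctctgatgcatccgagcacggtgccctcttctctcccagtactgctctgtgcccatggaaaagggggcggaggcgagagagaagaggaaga
The RefSeq table held 13 windows of 300 bases (250 before to 50 after a start) for 9 of the 10 genes. They were searched on both strands for the full cyclic AMP response element TGACGTCA, its half-site TGACG, the TATA box TATAAA, the CCAAT box CCAAT, the C/EBP-like motif TTNNGNAA and the NF-kB consensus. The half-site is contained in the full element. In the PTGS2 stretch the matches begin with a CCAAT box on the opposite strand 201 bases before the start, followed by a C/EBP-like motif at 133, a half-site on the opposite strand at 58 and a TATA box at 32. Outside the printed stretch, the PTGS2 window also held a CCAAT box 2 bases before the start. It also held a half-site on the opposite strand at position 25 after the start. The stretch at the first PTGS1 start holds TATAAA on the opposite strand 208 bases before it, that at the second start holds a C/EBP-like motif 115 bases before it, and the stretches of PTGES and PTGFR hold no match. Over all 35116 promoter windows of the table, the half-site was in 24.6%, the TATA box in 11.5%, the CCAAT box in 34.6%, the C/EBP-like motif in 36.8%, the NF-kB consensus in 11.3% and the full element in 1.85%. A CCAAT box was also found in windows of HPGD and PTGER4, and a C/EBP-like motif in a window of PTGES2. Half-sites were also found in windows of PTGER2, PTGES3 and HPGD, and NF-kB matches in windows of PTGER2, PTGER4, PTGES3 and HPGD, genes of which 2 fell by day 5, 1 rose and 1 had no counts. A match of letters is a description and does not show that a factor binds. The NF-kB pattern searched was GGGRNNYYCC, with R for A or G and Y for C or T. A window without a match to these fixed patterns, such as that of PTGS2 for NF-kB, is not shown to lack a site. The PTGFR stretch lies within the GENCODE 29 span of that gene but in none of its exons, whereas the first PTGS1 stretch and that of PTGES lie outside the spans of their genes and the second PTGS1 stretch lies inside its gene, in no exon. The PTGS2 stretch lies outside PTGS2 and overlaps an exon of PACERR on the plus strand.

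Because each cyclooxygenase is measured in the same library, their ratio does not depend on scaling between libraries. On the per-length scale (counts per kilobase of the deposited gene length, scaled to a fixed library sum), PTGS2 transcripts were 0.0211 and 0.0216 of PTGS1 in the day 0 libraries, 0.992 and 0.993 on day 2, and 0.278 and 0.259 on day 5. The 2 genes were thus about level on day 2, where PTGS2 made up 49.8% ± 0.0247 (SD, n = 2) of their summed per-length level, from 2.09% ± 0.0337 on day 0 and 21.2% ± 0.801 on day 5. With exon lengths from GENCODE 29 the day means of the ratio were 0.021, 0.98 and 0.265, and without division by length 0.0191, 0.892 and 0.241. The summed per-length level of both genes was 661 and 667 on day 0, 569 and 566 on day 2, and 186 and 187 on day 5. Unlike the ratio, this sum depends on the scaling between libraries, and the per-length scale uses no TMM factors. Those factors were 1.1 and 1.09 for the day 0 libraries and 0.963 for both day 2 libraries. No direction is therefore given for the sum on day 2 against day 0. By day 5 the sum was the lowest of the 3 days.

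**Figure D3:**
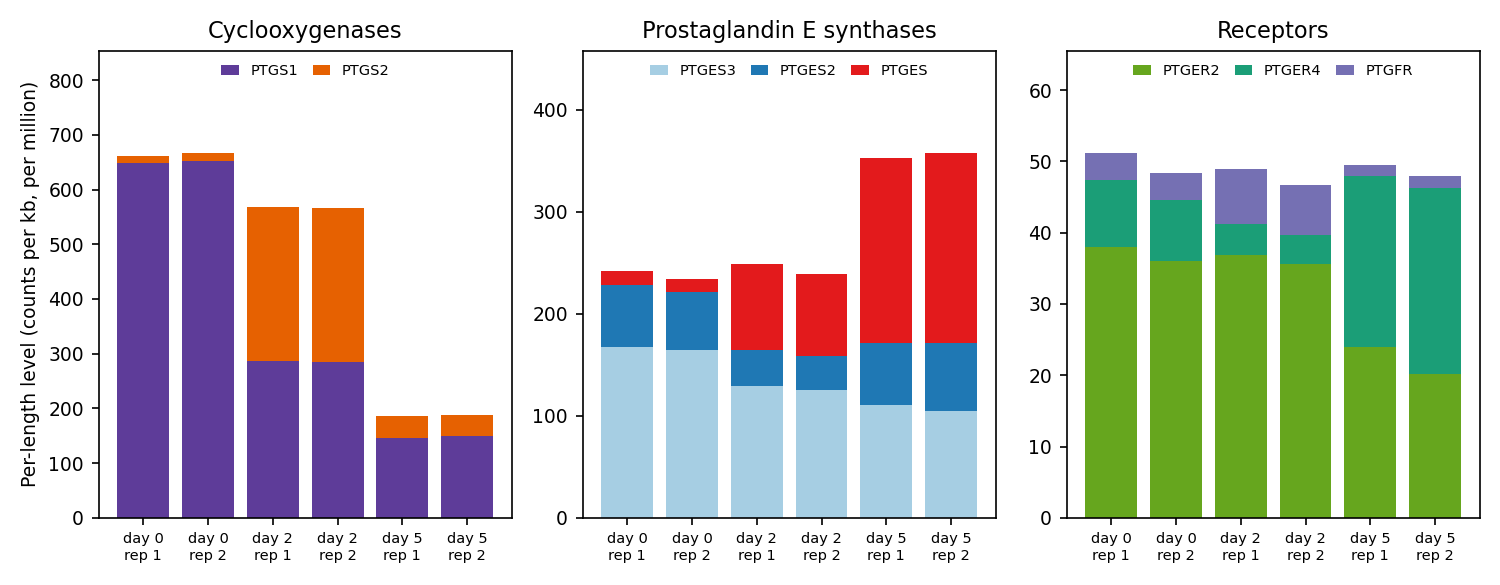
Per-length levels (counts per kilobase of deposited gene length, scaled to a fixed library sum; y axes from 0) stacked by library for the cyclooxygenases, the prostaglandin E synthases and the receptors. PTGS2 fills 49.8% of the cyclooxygenase bar on day 2, PTGES 51.7% of the synthase bar on day 5, and PTGER4 is above PTGER2 on day 5 with these lengths, though not with GENCODE 29 exon lengths.

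PACERR, a noncoding RNA gene that starts beside PTGS2 and is read from the opposite strand (chromosome 1, 186680622 to 186681446), was looked at after its values were seen. It had 1 and 2 counts on day 0, 24 and 18 on day 2, and 8 and 15 on day 5. Both later days were above day 0 and did not overlap it, at levels far below PTGS2. The ratio of scaled counts to day 0 was 15 on day 2 (95% interval 4.79 to 75.5, counting error only; edgeR adjusted p = 3.1e-04) and 11.9 on day 5 (3.6 to 62.1; edgeR adjusted p = 0.00116). Between day 5 and day 2 the log2 fold change was -0.34 (edgeR adjusted p = 0.601), while PTGS2 was 7.99-fold lower. PTGS2 and PACERR do not overlap in GENCODE 29, and the strand setting of the counting was not given in the sources used here.

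PTGES (ENSG00000148344), the membrane-bound prostaglandin E synthase that is often induced together with PTGS2, lies on the minus strand of chromosome 9 at 129738331 to 129753047. Its level was 10.5 and 9.93 CPM on day 0, 74.8 and 71.7 CPM on day 2, and 145 and 148 CPM on day 5. It was the only tested member that rose at both steps, and no days overlapped. PTGES was 7.17-fold higher on day 2 than on day 0 (log2 fold change 2.84 ± 0.06, edgeR adjusted p = 1.3e-16; over 2-fold, adjusted p = 2.9e-14) and 14.3-fold higher on day 5 (3.84 ± 0.06, edgeR adjusted p = 4.8e-19; over 2-fold, adjusted p = 1.4e-17). From day 2 to day 5, while PTGS2 dropped, PTGES rose by 1.00 ± 0.04 on the log2 scale (edgeR adjusted p = 2.0e-12), a change not called over 2-fold (adjusted p = 0.935).

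PTGES3 (ENSG00000110958), the cytosolic synthase also known as the Hsp90 co-chaperone p23, lies on the minus strand of chromosome 12 at 56663341 to 56688408. It stood at 152 and 150.3 CPM on day 0, 136 and 132 CPM on day 2, and 106 and 99.4 CPM on day 5. The days did not overlap, and each was a little lower than the one before. PTGES3 fell by 0.17 ± 0.04 on the log2 scale on day 2 (edgeR adjusted p = 5.3e-04), and by 0.56 ± 0.04 on day 5 (edgeR adjusted p = 1.0e-09), with neither change over 2-fold. Its pseudogene PTGES3P1 had 12 and 14 counts on day 0 and no more than 1 in any later library, and near-identical copies leave the split of such reads uncertain.

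PTGES2 (ENSG00000148334), a membrane-associated synthase, lies on the minus strand of chromosome 9 at 128120693 to 128128462. It had 42.7 and 40.4 CPM on day 0, 28.7 and 27.5 CPM on day 2, and 44.1 and 48.4 CPM on day 5. Day 2 was the lowest day, while the day 5 libraries lay only slightly above those of day 0. PTGES2 fell by 0.56 ± 0.07 on day 2 (edgeR adjusted p = 8.7e-07) and rose by 0.72 ± 0.07 from day 2 to day 5 (edgeR adjusted p = 6.6e-08). Its day 5 level lay 0.16 ± 0.06 from day 0 on the log2 scale (edgeR adjusted p = 0.0401), a call that 11 of 14 alternative settings did not keep (adjusted p from 0.0183 to 0.706) and whose sign turned with library totals (-0.05), so no direction is given for it.

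Among the 3 prostaglandin E synthases the balance moved from PTGES3 to PTGES. On the per-length scale, PTGES made up 5.58% ± 0.133 (SD, n = 2) of their summed level on day 0, 33.7% ± 0.206 on day 2 and 51.7% ± 0.519 on day 5. PTGES3 went from 69.6% ± 0.681 through 52.1% ± 0.277 to 30.5% ± 1.54, and PTGES2 from 24.9% ± 0.549 through 14.2% ± 0.0709 to 17.9% ± 1.02. With GENCODE 29 exon lengths the share of PTGES was 8.49, 44.2 and 63% on the 3 days, the same order of days with a larger share at each. Beside the cyclooxygenases, the pattern of PTGES differs in that its highest day was day 5, when the summed cyclooxygenase level was at its lowest.

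HPGD (ENSG00000164120), the dehydrogenase that starts prostaglandin inactivation, lies on the minus strand of chromosome 4 at 174490177 to 174523154 and had 0 counts in all 6 libraries. A sum of 0 counts over both libraries of a day allows a level of up to 0.0551 CPM on day 0, 0.059 CPM on day 2 and 0.0857 CPM on day 5 (3 counts over the day, counting error only). No fold change can be given for HPGD, nor a ratio to PTGS2. PTGIS (ENSG00000124212), which makes prostacyclin, lies on the minus strand of chromosome 20 at 49503874 to 49568146. It had 0 and 0 counts on day 0, 0 and 1 on day 2, and 2 and 3 on day 5, and was below the filter for the test. The 5 counts of day 5 against 1 on day 2 give a ratio of 7.27 (exact 95% interval 0.814 to 344, counting error only), an interval that includes no change. Without the filter on low counts, edgeR's adjusted p for day 5 against day 0 was 0.412, so a difference was not detectable for PTGIS at this depth.

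PTGER4 (ENSG00000171522), a receptor for prostaglandin E2 that couples to Gs, lies on the plus strand of chromosome 5 at 40679498 to 40693735. It had 14.1 and 13 CPM on day 0, 7.66 and 7.22 CPM on day 2, and 37.7 and 40.6 CPM on day 5. The days did not overlap: day 2 was the lowest and day 5 the highest. PTGER4 fell by 0.86 ± 0.11 on the log2 scale on day 2 (edgeR adjusted p = 1.4e-06), then rose 5.27-fold to day 5 (2.40 ± 0.10, edgeR adjusted p = 6.4e-13; over 2-fold, adjusted p = 3.2e-10), to 2.9-fold above day 0 (1.54 ± 0.09, edgeR adjusted p = 7.3e-11; over 2-fold, adjusted p = 1.4e-05). The gene lies inside the span of TTC33 on the opposite strand, which had 199 to 316 counts per library, and reads of overlapping genes cannot be told apart without strand. TTC33 itself stood at 8.28 and 8.45 CPM on day 0, 10.9 and 11.8 CPM on day 2, and 11.9 and 13.9 CPM on day 5. Its log2 fold change was 0.44 on day 2 against day 0 (edgeR adjusted p = 0.00434), where PTGER4 fell. For the comparisons where PTGER4 rose, TTC33 gave 0.63 on day 5 against day 0 (edgeR adjusted p = 2.5e-04). On day 5 against day 2 it gave 0.19 (edgeR adjusted p = 0.171), which was not called. The part of TTC33 in the PTGER4 counts was not tested.

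PTGER2 (ENSG00000125384), the other prostaglandin E2 receptor that couples to Gs, lies on the plus strand of chromosome 14 at 52314305 to 52328606. Its level was 41 and 38.9 CPM on day 0, 46.1 and 44.5 CPM on day 2, and 26.9 and 22.6 CPM on day 5. Both day 5 libraries lay below all others, and the days 0 and 2 were separated by a small margin. PTGER2 fell by 0.70 ± 0.08 on the log2 scale from day 0 to day 5 (edgeR adjusted p = 4.4e-07) and by 0.88 ± 0.08 from day 2 to day 5 (edgeR adjusted p = 2.5e-08), in both cases by less than 2-fold. For day 2 against day 0 its log2 fold change was 0.18 ± 0.07 (edgeR adjusted p = 0.0261). That call was not kept in 6 of 14 alternative settings. It was lost in DESeq2 (adjusted p = 0.115), and in edgeR without the filter on low counts (adjusted p = 0.0589). An assumed variation of 20% also lost it (edgeR adjusted p = 0.668), as did library totals, where the value was -0.0033 (edgeR adjusted p = 0.97). The other 2 settings left out the second day 0 library (log2 fold change 0.14) or the first day 2 library (0.16). No direction is given for PTGER2 on day 2.

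The balance of these 2 receptors turned between day 2 and day 5. On the per-length scale PTGER4 made up 19.7 and 19.3% of the sum of PTGER2 and PTGER4 on day 0, 10.6 and 10.4% on day 2, and 50.1 and 56.3% on day 5. The share was lowest on day 2 and highest on day 5, with no overlap between days. With GENCODE 29 exon lengths the day means were 17.4, 9.29 and 49.8%, so whether PTGER4 exceeded PTGER2 on day 5 depends on the gene length taken.

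PTGFR (ENSG00000122420), the prostaglandin F2 alpha receptor, lies on the plus strand of chromosome 1 at 78303884 to 78539749. It had 9.15 and 9.11 CPM on day 0, 21.2 and 19 CPM on day 2, and 3.84 and 3.93 CPM on day 5. Like PTGS2 it was highest on day 2, and unlike PTGS2 it ended below day 0. PTGFR rose by 1.14 ± 0.11 on the log2 scale on day 2 (edgeR adjusted p = 6.0e-08; over 2-fold, adjusted p = 0.217), or by 0.95 with library totals. It then fell 5.16-fold to day 5 (log2 fold change -2.37 ± 0.13, edgeR adjusted p = 4.8e-11; over 2-fold, adjusted p = 3.0e-08). Against day 0 it was lower on day 5 (log2 fold change -1.23 ± 0.14, edgeR adjusted p = 6.3e-07; over 2-fold, adjusted p = 0.0891, or 0.00512 with library totals).

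Levels of different genes were set in order only on the per-length scale, as means ± SD of 2 libraries. On day 0 PTGS1 led at 650.2 ± 3.52, followed by PTGES3 at 166 ± 1.78, PTGES2 at 59.2 ± 2.52 and PTGER2 at 37 ± 1.47. PTGS2 (13.9 ± 0.303) and PTGES (13.3 ± 0.589) overlapped in their libraries and do not differ beyond their spread, and PTGER4 (8.98 ± 0.537) and PTGFR (3.83 ± 0.0238) came last. On day 2 PTGS1 (285 ± 1.23) and PTGS2 (283 ± 0.945) stood together at the top, with PTGS2 marginally lower in both libraries, above PTGES3 (127 ± 2.27) and PTGES (82.2 ± 2.41). Below them were PTGER2 (36.2 ± 0.893), PTGES2 (34.6 ± 0.974), PTGFR (7.28 ± 0.552) and PTGER4 (4.26 ± 0.176). On day 5 PTGES was the highest of the 10 genes at 184 ± 3.89, ahead of PTGS1 at 147 ± 2.08, PTGES3 at 108 ± 4.28, PTGES2 at 63.6 ± 4.34 and PTGS2 at 39.5 ± 1.34. PTGER4 (25.1 ± 1.4), PTGER2 (22.1 ± 2.61) and PTGFR (1.57 ± 0.0322) followed. With GENCODE 29 exon lengths PTGES remained ahead of PTGS1 on day 5 (169.7 and 128), but several close neighbours changed places: PTGES2 (31.1) fell behind PTGER2 (36.8) and PTGES (12.3) passed PTGS2 (11.9) on day 0, and PTGER2 (22) passed PTGER4 (21.7) and PTGS2 (33.8) passed PTGES2 (33.4) on day 5.

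The other genes of the pathway came from lists of 67 symbols, of which 63 were in the table and 48 were tested. Day 2 had 18 of these higher and 17 lower than day 0 (14 and 22 with library totals), beside 33.4% higher and 33.4% lower over all tested genes. Day 5 had 15 higher and 25 lower (13 and 26 with library totals), beside 35.8 and 34.1%. The counts of the single lists given next are to be read against these same shares, 66.8% of all genes called on day 2 and 69.9% on day 5 in either direction. All these shares belong to the fit with TMM factors. With library totals, 4249 of 11151 calls over all genes were higher on day 2 (38.1%) and 4415 of 11314 on day 5 (39%). Counts given with library totals, here and below, are to be read against those. The median log2 fold change of the 48 genes was -0.05 on day 2 and -0.40 on day 5 against day 0, beside 0.003 and 0.04 over all tested genes. Changes over 2-fold were called for 12 of 48 on day 2 (8 higher and 4 lower) and for 22 of 48 on day 5 (7 higher and 15 lower), where 12.5 and 20.1% of all genes passed.

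Upstream of the cyclooxygenases, of 11 tested genes of arachidonate release and re-uptake into membranes 4 were higher and 6 lower on day 2, and again 4 and 6 on day 5 (medians -0.18 and -0.84). PLA2G4A, the cytosolic phospholipase that frees arachidonic acid, stood at 12.5 ± 0.421 CPM on day 0, 45.8 ± 2.02 CPM on day 2 and 26.6 ± 3.21 CPM on day 5. Like PTGS2 it was highest on day 2 and stayed above day 0 on day 5 (log2 fold changes against day 0 of 1.87 ± 0.09 and 1.09 ± 0.09, edgeR adjusted p = 3.3e-12 and 1.6e-08). ACSL4, which activates arachidonic acid for return to membrane lipids, went from 147 ± 1.03 to 1675 ± 35.6 and 596 ± 7.41 CPM (3.51 ± 0.02 and 2.02 ± 0.02, edgeR adjusted p = 2.3e-23 and 1.5e-20). PLA2G4B rose from 1.69 ± 0.294 to 10.01 ± 1.79 and 5.66 ± 0.958 CPM, a value that is uncertain because a readthrough gene shares its exons. ANXA1, an annexin known as an inhibitor of phospholipase A2 activity, dropped from 525 ± 0.797 to 203 ± 0.988 and 14.7 ± 2.18 CPM (log2 fold change on day 5 -5.16 ± 0.05, edgeR adjusted p = 9.5e-22). PLA2G15, a lysosomal phospholipase, fell from 58.5 ± 0.956 to 25.7 ± 0.101 and 15.1 ± 0.843 CPM, PLAAT3 from 19.3 ± 0.54 to 14.6 ± 0.883 and 5.43 ± 0.125 CPM, and MBOAT7, which attaches arachidonate to phosphatidylinositol, from 239 ± 3.46 to 136 ± 1.25 and 96.3 ± 4.9 CPM.

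Of 10 tested genes for the other prostanoid synthases and reductases, 3 were higher and 4 lower on day 2, and 2 were higher and 6 lower on day 5 (medians -0.24 and -0.84). With library totals the day 2 split was 2 higher and 7 lower. The 5 genes changed over 2-fold on day 5 against day 0 were all lower, where 10.3% of all genes were lower by that rule. They were TBXAS1, the thromboxane synthase, from 168 ± 2.28 on day 0 to 34.1 ± 0.00333 CPM on day 5, AKR1B1, an aldose reductase that can form prostaglandin F2 alpha, from 1203 ± 5.6 to 202 ± 4.79 CPM, PTGR1, which reduces prostaglandin and leukotriene metabolites, from 334 ± 7.8 to 46.6 ± 0.551 CPM, PRXL2B from 60.04 ± 0.103 to 26.7 ± 1.21 CPM and the carbonyl reductase CBR3 from 8.76 ± 0.342 to 2.08 ± 0.0636 CPM. AKR1B1 had been above day 0 on day 2, at 2085 ± 0.331 CPM (log2 fold change 0.79 ± 0.02, edgeR adjusted p = 2.3e-16).

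Prostaglandins leave and enter cells through carriers, of which 3 were tested. SLCO2A1, the prostaglandin uptake transporter, rose from 1.23 ± 0.432 CPM on day 0 to 30.7 ± 0.162 CPM on day 2 and 23.2 ± 1.9 CPM on day 5 (log2 fold changes 4.65 ± 0.15 and 4.25 ± 0.16, edgeR adjusted p = 3.0e-14 and 1.4e-13). ABCC4, an exporter of prostaglandins and cyclic nucleotides, rose from 221 ± 3.16 to 502 ± 18.5 CPM on day 2 and was below day 0 on day 5, at 150 ± 5.64 CPM (1.18 ± 0.03 and -0.56 ± 0.04, edgeR adjusted p = 1.7e-15 and 2.0e-10). SLCO3A1 fell from 23 ± 0.956 to 11.9 ± 0.115 and 7.66 ± 0.105 CPM.

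Among the other prostanoid receptors 4 of 6 were tested, with 1 higher and 2 lower than day 0 on both later days. PTGDR2, a receptor for prostaglandin D2, rose from 0.534 ± 0.026 to 11.8 ± 0.771 CPM on day 2 and stood at 4.82 ± 0.286 CPM on day 5 (4.45 ± 0.21 and 3.17 ± 0.24, edgeR adjusted p = 4.9e-12 and 2.3e-09). TBXA2R, the thromboxane receptor, fell from 6.65 ± 0.651 to 1.63 ± 0.00914 and 0.45 ± 0.213 CPM. PTGER1, the prostaglandin E2 receptor that raises calcium, fell from 5.21 ± 0.558 to 3.24 ± 0.632 and 0.75 ± 0.211 CPM, and its call on day 2 (edgeR adjusted p = 0.00982) was lost without the second day 0 library (0.097) or the first day 2 library (0.105). The prostacyclin receptor PTGIR, named after its values were seen, had 5.48 ± 0.559, 6.08 ± 0.711 and 6.29 ± 0.862 CPM and was not called in any comparison (edgeR adjusted p from 0.32 to 0.842).

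The lipoxygenase branch, which competes for arachidonic acid, had 8 tested genes, with 3 higher and none lower on day 2, or 1 and 1 with library totals, and 3 higher and 3 lower on day 5. The lipoxygenase genes themselves, named after their values were seen, were barely detected. ALOX5, ALOX12B and ALOX15B had 0 counts in every library, and ALOX15 and ALOXE3 had 3 or fewer. ALOX12 had 1 to 15 counts per library and was not called in any comparison. LTC4S, also named after its values were seen, had 2 counts or fewer in every library. CYSLTR2, a cysteinyl leukotriene receptor, had no counts on days 0 and 2 and 37 and 47 counts on day 5, at least 43.6-fold higher than day 0 with the floor of 3 counts over the day. OXER1, a receptor for an oxidised eicosanoid, had 0 and 4 counts on day 0, 2 and 1 on day 2, and 21 and 25 on day 5, a ratio of scaled counts of 17.9 to day 0 (95% interval 6.53 to 68.4, counting error only). LTA4H, which makes leukotriene B4, went from 63.1 ± 0.635 to 107 ± 1.64 and 47.9 ± 1.77 CPM, and MGST3 from 139 ± 1.24 to 159.9 ± 6 and 64.1 ± 2.98 CPM. Downstream of the receptors, of 12 G protein, arrestin and receptor kinase genes 5 were higher and 4 lower on day 2, and 4 higher and 6 lower on day 5 (3 and 7 with library totals). GRK5, a kinase that phosphorylates active receptors, rose from 99.3 ± 0.932 to 308 ± 2.15 and 497 ± 0.0368 CPM, while the arrestin ARRB1 was lowest on day 2 (50.3 ± 2.04, 15.1 ± 1.13 and 37.9 ± 0.151 CPM). The inhibitory G protein genes GNAI1 (148 ± 3.17, 325 ± 5.83 and 49 ± 1.56 CPM) and GNAI2 (796 ± 12.9, 701 ± 19.3 and 331 ± 9.84 CPM) were both below day 0 on day 5.

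**Figure D4:**
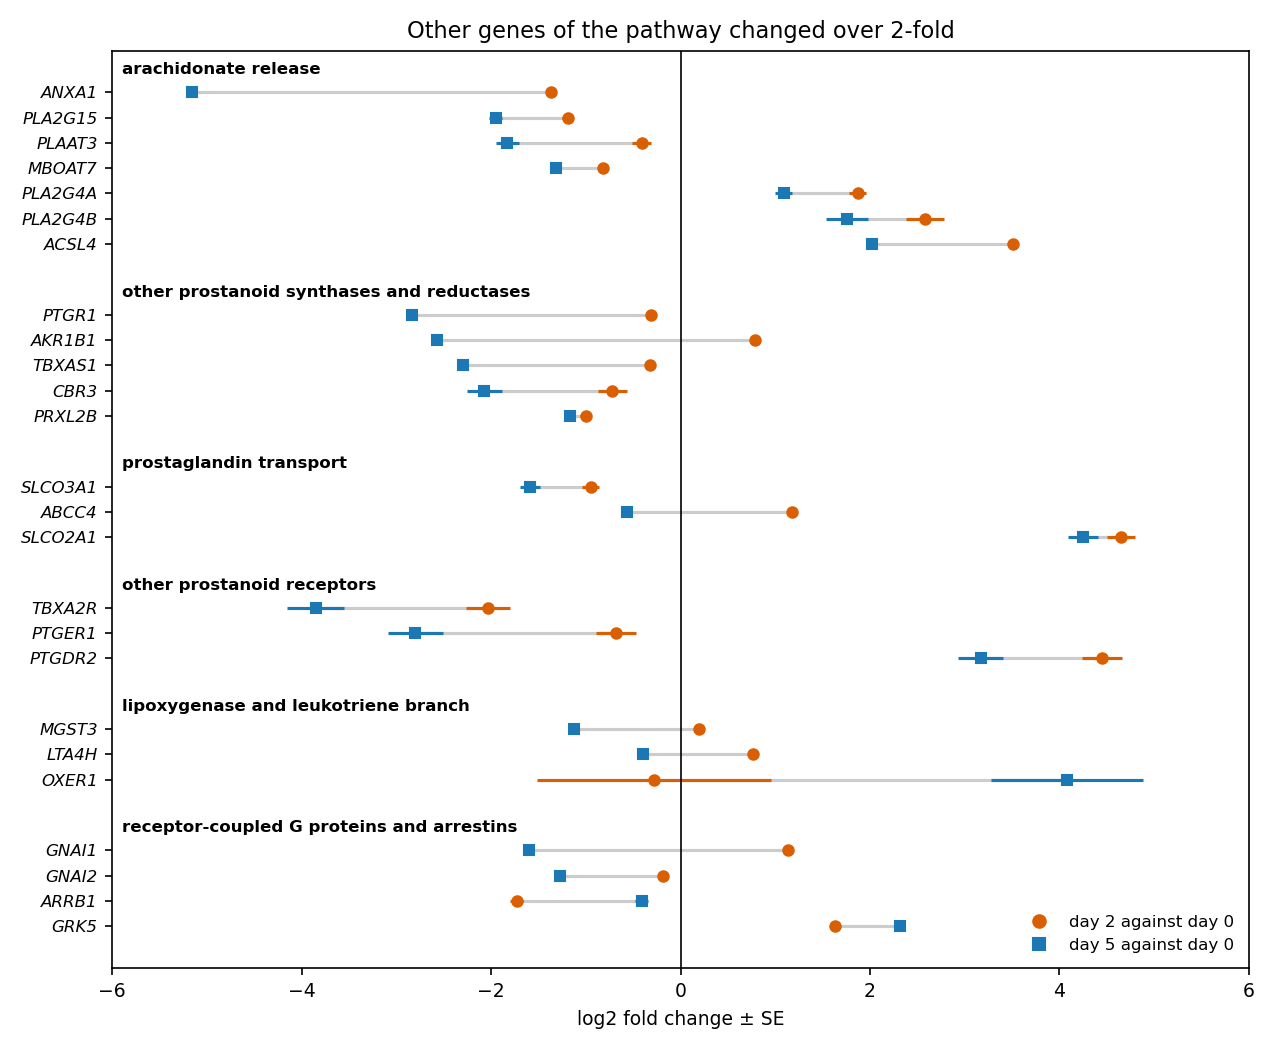
Log2 fold changes with standard errors against day 0, on day 2 and day 5, for the pathway genes called over 2-fold in at least 1 of the 3 comparisons, grouped by list; CYSLTR2 is left out because it had no counts on days 0 and 2. SLCO2A1, PTGDR2, ACSL4, PLA2G4A, PLA2G4B and GRK5 lie to the right of 0 on both days, and ANXA1 on day 5 lies farthest to the left, at -5.16.

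Genes with the course most like that of PTGS2 were sought by the root mean square distance between log2 CPM values centred on each gene's mean, over 6 libraries and 11059 tested genes whose mean reached 5 CPM. The 5 nearest were CD274, AMPH, IQSEC3, NAMPTP1 and NAMPT, at distances of 0.292 to 0.533. CD274, the ligand PD-L1, had 1.59 ± 0.259, 26.3 ± 0.735 and 4.58 ± 0.625 CPM on days 0, 2 and 5. AMPH had 2.22 ± 0.762, 46.7 ± 0.97 and 9.61 ± 1.46 CPM, and IQSEC3 0.765 ± 0.133, 14.3 ± 0.337 and 3.46 ± 0.19 CPM. NAMPT, an enzyme of NAD synthesis, had 55.2 ± 0.0953, 633 ± 4.33 and 182 ± 1.69 CPM. NAMPTP1 is a near-identical copy of NAMPT, so the split of reads between them is uncertain. The likeness is a description over 3 days with shared libraries, and the same 5 genes were nearest with a prior count of 0.5 in place of 2.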

How the data were processed

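TruSeq RNA libraries were made from TRIzol-extracted, DNase-treated RNA, per the labels' protocols. The deposited values are expected counts per gene, not scaled between libraries, as the file headers and the values themselves show: 87.2% were whole and the rest were rounded before testing. Reads were placed on GRCh38, per the submitters' processing notes. Which aligner, counting tool, annotation release and strand setting were used is not given in the sources used here. A gene length of unstated origin in the deposited table was used for per-length levels, and the authors' mean expected counts per day were not used. Of 60843 genes, 172 without a name (0.0356 to 0.0475% of counts) were left out.

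Levels are CPM scaled by TMM factors, given as mean ± SD over 2 libraries. All 6 libraries entered 1 edgeR 4.0.16 fit by day (R 4.3.3; filterByExpr with a minimum count of 10 and total of 15; 3 residual degrees of freedom), with quasi-likelihood tests, glmTreat for changes over 2-fold, two-sided p-values and Benjamini-Hochberg adjustment over 16327 genes at 0.05. The SE of an edgeR log2 fold change was derived as its absolute value over the square root of the F statistic of the quasi-likelihood test. The steps were tested on simulated data. Replicate libraries differed by 2.33 to 2.44 times the sampling variance, and each was counted as a sample. This spread cannot tell separate cultures from separate preparations of 1 culture. The fitted variation between replicates was 3.33%. A floor of 3 counts over a day stood for genes with no counts; intervals and floors cover counting error only. The planned ratio of PTGS2 to HPGD could not be given, since HPGD had 0 counts. The members and gene lists were chosen with earlier results of these data known. Named were all members, pathway genes called over 2-fold in any comparison, and the 5 genes nearest to PTGS2; others are said to be chosen after their values were seen. Gene coordinates came from GENCODE 29 on GRCh38, matched by identifier for 10 of 10 members, and upstream sequences from RefSeq (GRCh38.p14). Alternatives were DESeq2 1.42.0, RLE size factors, library totals without TMM, no filter on low counts, a filter at 1 CPM in 4 libraries, only the 2 days compared, a replicate block, leaving out each library, and, chosen after seeing the data, GENCODE 29 exon lengths and an assumed variation of 20%.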

Additional observations from a re-analysis of the deposited data

How the results depend on the processing

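Over the alternatives, 315 of the members' log2 fold changes kept their sign and call, 19 lost the call and 2 turned their sign, both with library totals: PTGER2 at day 2 (-0.0033, edgeR adjusted p = 0.97) and PTGES2 at day 5 against day 0 (-0.05, edgeR adjusted p = 0.526). This scaling moved the median of all genes by -0.18 and -0.21 in these comparisons. Leaving out each library gave 7 to 8 called members at day 2 and 7 to 8 at day 5 against day 0 and 8 between day 5 and day 2; over 2-fold it gave 2, 4 and 4. With library totals the counts over 2-fold were 3, 5 and 4, PTGS1 joining on day 2 and PTGFR on day 5 against day 0. Over all 16327 tested genes that scaling passed 2079, 3399 and 2362 over 2-fold, beside 2045, 3278 and 2345 in the main fit. A library left alone for its day was assumed to vary like the others. DESeq2 called 7, 7 and 8 members, beside 9884, 10444 and 9737 of the 29118 genes it tested. With an assumed variation of 20% in every gene, chosen after seeing the data, 5 of 8 were called at day 2 (lost: PTGES2, PTGES3 and PTGER2), 6 at day 5 and 7 between day 5 and day 2. Calls fell over the whole table too under this setting, to 5495, 6785 and 5676 of 16327 genes. The main fit called 10912, 11405 and 10746 in the same comparisons. Libraries of different days share replicate numbers, but the labels do not say that a number marks a shared culture or batch, so the main fit held no pairing. Deviations of same-numbered libraries correlated at 0.069, 0.028 and 0.048 over 11332 genes. Because these deviations include counting error, low correlations cannot exclude a shared culture or batch. With the number as a replicate block, 8, 8 and 8 members were called, and 2, 4 and 4 over 2-fold. Over all 16327 tested genes the block gave 10806, 11297 and 10642 calls, and 1933, 3191 and 2265 over 2-fold. Depth limits HPGD and PTGIS, which had 3 counts or fewer in every library.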
